A study of Mus musculus with 6 samples.

Results

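Imprinted growth genes were followed through 6 RNA-seq libraries of mouse blood progenitors. The set was a list of 10 genes of the imprinted gene network of blood stem cells (H19, Igf2, Igf2r, Grb10, Gnas, Ndn, Peg3, Dlk1, Meg3 and Plagl1), taken by gene name from an expression table of 16440 genes. The table held 9 of the 10. Igf2 was not analysed here.

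The study compared immature leukemic cells with normal myeloid progenitors (MPs), in order to find genes that are dysregulated in acute promyelocytic leukemia (APL). The 3 MP libraries came from Lin-Sca-1-c-Kit+ bone marrow cells, that is, cells without lineage markers or Sca-1 and with the receptor c-Kit, sorted by flow cytometry from mice of the strain FVB N/J. The 3 APL libraries came from GFP-labeled c-Kit+ APL cells of the same strain. Their leukemia arose in hMRP8-PML/RARα transgenic mice, in which a myeloid promoter drives the PML/RARα fusion protein of human APL, was marked with the GFP retroviral vector MigR1 and was expanded by transplantation into syngeneic mice. Both groups were therefore gated on c-Kit, but the MP gate also removed lineage-positive and Sca-1+ cells, and no treatment with a differentiating drug was part of these libraries. The series states 3 biological replicates per group without saying whether the APL libraries trace back to separate primary leukemias. The p-values below therefore set the group difference against the spread between these libraries, which may not be the spread between leukemias.

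An imprinted gene is transcribed mainly from the copy inherited from one parent, because methylation laid down in one germ line marks a nearby control region. Many paternally expressed imprinted genes promote growth and many maternally expressed ones restrain it. In blood, genes of this network are known for high expression in quiescent stem cells and for a decline as the cells mature into progenitors. The libraries counted RNA per gene without assigning it to a parental copy, and no DNA methylation was measured in them.

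Of the members, Grb10, Igf2r and Ndn were lower in the APL progenitors, Plagl1 was higher and Gnas was not called. Mean scaled fragments in MPs and APL were 1786 and 9.12 for Grb10, 862 and 30.0 for Igf2r, and 45.6 and 555 for Plagl1. H19, Peg3, Dlk1 and Meg3 held no more than 4 fragments in any library. Values are scaled fragments unless FPKM is named. A scaled fragment is an estimated number of sequenced fragments of a gene, multiplied by a factor of its library, and FPKM is the fragments of a gene divided by the length of its transcript and by the depth of the library.

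The copies of an imprinted gene differ in methylation of CG pairs at a control region. The letters before the start sites of the members that changed are shown here for their CG pairs. They were chosen by start site and need not include that region. The windows hold the 250 bases before the start site given by RefSeq on GRCm38.p6, in the direction of transcription, with every CG in capitals.
Grb10, chr11:12037421-12037670, minus strand: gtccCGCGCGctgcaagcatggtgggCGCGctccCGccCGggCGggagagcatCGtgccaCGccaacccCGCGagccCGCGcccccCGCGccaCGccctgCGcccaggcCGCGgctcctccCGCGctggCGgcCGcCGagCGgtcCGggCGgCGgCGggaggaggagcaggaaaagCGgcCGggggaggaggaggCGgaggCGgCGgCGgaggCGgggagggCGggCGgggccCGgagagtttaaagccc
Igf2r, chr17:12769707-12769956, minus strand: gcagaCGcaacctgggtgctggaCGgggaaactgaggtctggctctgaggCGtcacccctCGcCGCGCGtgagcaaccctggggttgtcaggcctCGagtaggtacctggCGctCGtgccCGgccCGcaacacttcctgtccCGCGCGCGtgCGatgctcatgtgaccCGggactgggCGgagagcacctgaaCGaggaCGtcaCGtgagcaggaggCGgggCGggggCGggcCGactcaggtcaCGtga
Plagl1, chr10:13090582-13090831, plus strand: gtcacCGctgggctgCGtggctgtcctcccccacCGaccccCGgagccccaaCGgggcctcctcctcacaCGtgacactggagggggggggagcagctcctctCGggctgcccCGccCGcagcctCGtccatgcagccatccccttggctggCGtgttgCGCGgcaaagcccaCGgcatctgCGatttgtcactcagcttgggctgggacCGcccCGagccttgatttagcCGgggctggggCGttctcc
Ndn, chr7:62348027-62348276, plus strand: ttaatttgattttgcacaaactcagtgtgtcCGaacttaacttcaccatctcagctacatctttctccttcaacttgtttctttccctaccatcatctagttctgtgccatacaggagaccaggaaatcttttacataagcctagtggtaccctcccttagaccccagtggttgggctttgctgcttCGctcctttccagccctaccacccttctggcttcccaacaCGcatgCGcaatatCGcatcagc
The Grb10 window held 40 CG pairs, more than 98.7% of the 32851 windows of this length, whose median was 6. The Igf2r window held 27 (more than 91.4% of windows), the Plagl1 window 19 (more than 80.3%) and the Ndn window 5 (more than 44.4%). The hexamer TGCCGC, searched on both strands and known as the binding motif of the imprint-protecting protein ZFP57, was found 1 time in the Plagl1 window and was not found in the windows of Grb10, Igf2r and Ndn, while 8.68% of all windows held it. These counts are descriptions of the reference letters and carry no information on methylation in the cells. Grb10 has 2 windows in the RefSeq table, and the one at the start of its listed locus is printed, while the other held 8 CG pairs. The Igf2r window lies inside the locus the table lists for it, 98437 bases from its end, because that locus also spans other genes. The RefSeq table matched 8 of the 9 members measured, all but H19.

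Igf2r encodes the receptor that binds the growth factor IGF2 and delivers it to lysosomes, and is expressed from the maternal copy in most mouse tissues. Its locus in the table lies on chromosome 17 from 12682406 to 12868143 (GRCm38). The MP libraries held 921, 898 and 768 scaled fragments and the APL libraries 28.3, 34.7 and 27.2. All 3 APL libraries were far below all 3 MP libraries. The means were 862 ± 82.1 and 30.0 ± 4.06 (SD, n = 3 each), and the log2 fold change of APL against MP was -4.80 with an SE of 0.15 and an interval of 95% from -5.15 to -4.46 (limma, adjusted p = 3.0e-08). This is a 27.9-fold lower level. Before scaling, the APL values were 24, 40 and 22 fragments, so the residual signal was above the floor of 3 fragments in each library. Per length, the level was 3.11 ± 0.310 FPKM in MPs and 0.109 ± 0.0139 FPKM in APL. In this bulk RNA, fewer cells that express a gene and less of its RNA per cell cannot be told apart, here and in the results that follow.

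The table gave the same locus to Igf2r, to the antisense transcript Airn and to Mas1. Airn, the long non-coding RNA that silences the paternal Igf2r copy in tissues where it is transcribed, was at 8.43, 7.62 and 10.8 scaled fragments in MPs and at 0 in all 3 APL libraries, at least 2.42-fold lower (limma, adjusted p = 3.3e-05). The test took genes with at least 1 scaled fragment in at least 3 libraries. Airn met this through the MP libraries alone, so it could be called in 1 direction only. Mas1, which encodes a receptor of the renin-angiotensin system, held at most 2 fragments in any library. Strand use in the counting is not given in the sources used here, so reads of Igf2r and of its antisense partner cannot be told apart beyond the authors' own assignment.

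H19 is a maternally expressed long non-coding RNA that shares a control region with Igf2. At chromosome 7 from 142575532 to 142578146, it held 2, 2 and 0 fragments in the MP libraries and 0 in each APL library. The values overlapped at 0 (two-sided exact permutation test, p = 0.4), and a level of up to 3 fragments per library would not be seen as different from absence at this depth.

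Grb10 encodes an adaptor protein that binds the insulin and IGF1 receptors and dampens their signals. It is expressed from the maternal copy outside the nervous system. On chromosome 11 from 11930499 to 12037420, the MP libraries held 1797, 1965 and 1596 scaled fragments and the APL libraries 4.71, 16.5 and 6.17. Every APL library lay far below the lowest MP library. The means were 1786 ± 185 and 9.12 ± 6.41 (SD, n = 3 each). Grb10 had a log2 fold change of -7.64 with an SE of 0.37 and an interval of 95% from -8.47 to -6.81 (limma, adjusted p = 2.6e-07). The ratio of the means was 196. Of the 14595 genes tested, 21 (0.144%) decreased more. The APL values were 4, 19 and 5 fragments before scaling, so their differences rest on few fragments. Without APL library 2, the highest of them, the log2 fold change was -8.12. Per length, Grb10 was at 12.4 ± 1.29 FPKM in MPs and at 0.0653 ± 0.0453 FPKM in APL.

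Gnas encodes Gsα, the subunit that couples many receptors to adenylyl cyclase, and imprinted transcripts start upstream of it. It was the most abundant member in both groups, with 328 ± 43.1 FPKM in MPs and 349 ± 32.0 FPKM in APL, above 98.8% and 98.7% of the genes in the table. On chromosome 2 from 174281237 to 174346742, the scaled fragments were 12849, 12405 and 16422 in MPs and 12994, 15509 and 14596 in APL. The groups overlapped throughout. The log2 fold change was 0.06 with an interval of 95% from -0.23 to 0.34 (limma, adjusted p = 0.709), and its sign turned with quantile normalization and with scaling to the same total, but not with median ratio scaling or FPKM. The exact permutation test gave p = 0.8. Nespas, an antisense RNA of the same locus, was at 11.2, 6.67 and 8.12 scaled fragments in MPs and at 0 in all APL libraries, at least 2.34-fold lower (limma, adjusted p = 4.9e-05). Like Airn, Nespas entered the test through the MP libraries alone, so only a lower call was open to it. The single value for Gnas does not separate its imprinted transcripts from the main Gsα transcript.

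Plagl1 encodes a zinc-finger transcription factor that arrests the cell cycle and regulates other imprinted genes, and is expressed from the paternal copy. On chromosome 10 from 13090788 to 13131695, it was the one member that was higher in APL. The MP libraries held 48.7, 45.7 and 42.4 scaled fragments and the APL libraries 566, 570 and 531. The replicates lay close together and the groups far apart. The means were 45.6 ± 3.16 and 555 ± 21.4 (SD, n = 3 each), and the log2 fold change was 3.58 with an SE of 0.13 and an interval of 95% from 3.28 to 3.87 (limma, adjusted p = 5.6e-08), and the ratio of the means was 12.2. Of all genes tested, 2.74% increased more. Per length the level went from 0.362 ± 0.0252 FPKM to 4.37 ± 0.163 FPKM.

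Ndn encodes necdin, a paternally expressed protein that restrains cell division and has been studied as a regulator of stem cell quiescence. On chromosome 7 from 62348277 to 62349927, it was at 25.3, 23.8 and 38.8 scaled fragments in MPs and at 0, 0.867 and 0 in APL. The whole APL group held 1 fragment of this gene. With means of 29.3 ± 8.25 and 0.289 ± 0.501 (SD, n = 3 each), Ndn was at least 7.91-fold lower in APL (limma, adjusted p = 8.6e-06). The bound sets the MP mean against 3 fragments in an APL library.

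The other growth genes were near absence in both groups. Peg3, a paternally expressed zinc-finger gene on chromosome 7 from 6705960 to 6730419, held 2, 1 and 1 fragments in MPs and 0 in each APL library. Dlk1, which encodes a membrane protein of the Notch ligand family, held 1, 1 and 4 fragments in MPs and 0 in APL (chromosome 12, from 109452823 to 109463336). Meg3, the maternally expressed non-coding RNA of the Dlk1 domain, held 2, 2 and 2 fragments in MPs and 0, 1.22 and 0 in APL (chromosome 12, from 109540996 to 109571729). All 3 were separated between the groups, as were 70.9% of all genes tested. For Peg3 and Dlk1 the closest libraries held 1 fragment against 0. The two-sided exact permutation test gave p = 0.1 for each of the 3, the smallest p that 3 libraries against 3 allow. No fold is given for them, since both means were under the floor. Meg3 alone of the 3 entered the test across genes and was called there (limma, adjusted p = 0.038), a call that rests on at most 2 fragments in a library and was lost in 8 of the 14 alternative settings in which Meg3 was tested.

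In order of FPKM in MPs, Gnas stood first, followed by Grb10, Igf2r, Ndn and Plagl1, and none of these neighbours overlapped among the libraries. In APL the order was Gnas, Plagl1, Igf2r, Grb10 and Ndn, and there Igf2r (0.0986 to 0.125 FPKM) and Grb10 (0.0358 to 0.117 FPKM) overlapped. Plagl1 was thus the lowest of the 5 in MPs and the second highest in APL.

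**Figure D1:**
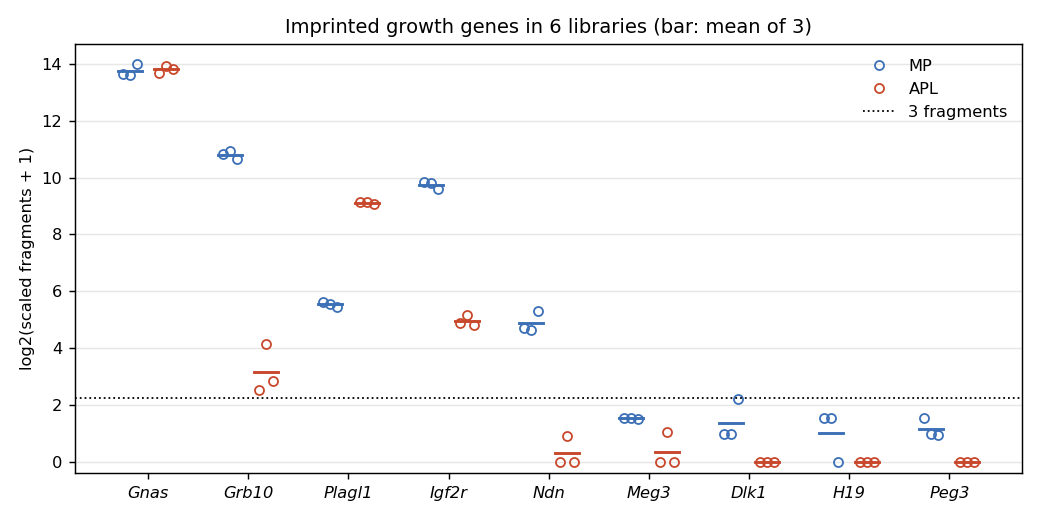
Scaled fragments of the 9 measured members in each library, on a log2 axis after adding 1, with MP and APL libraries as separate points, group means of the log2 values as bars and the floor of 3 fragments as a dotted line. Grb10 and Igf2r are high in the 3 MP libraries and low in the 3 APL libraries, Plagl1 is the reverse, the Gnas points overlap, and H19, Peg3, Dlk1 and Meg3 lie near 0.

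In all, 6 of the 9 measured members passed the filter of at least 1 scaled fragment in at least 3 libraries, and 3 (H19, Peg3 and Dlk1) did not. A gene was called at an adjusted p under 0.05 and a fold change over 1.5. Of the 6, 4 were called lower (Grb10, Igf2r, Ndn and Meg3), where 24.4% of all genes tested were, and 1 was called higher (Plagl1), where 21.7% were. In either direction, 46.1% of all genes were called. No APL value lay within the range of the MP values, or the reverse, for 5 of the 6 members and for 70.9% of all genes. Ndn and Meg3 passed the filter through the MP libraries, where they are higher, so these counts are no support for a direction of the set. Over all genes tested the median log2 fold change was -0.10, or -0.07 with genes at the floor set to their bounds. On log2(FPKM + 1), a scale that shrinks changes of low genes, the values were -3.65 for Grb10, -1.89 for Igf2r, -0.79 for Ndn and 1.98 for Plagl1, and all 4 were still called (limma). The exact permutation test gave p = 0.1 for Grb10, Igf2r, Ndn and Plagl1.

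Total fragments before scaling lay between 22976905 and 26932327 in the MP libraries and between 20608715 and 28382785 in the APL libraries. MP library 3 stood apart from its group. Its median squared difference from MP libraries 1 and 2, over well covered genes, was 13.7 and 13.8 times that of sampling noise. The same ratio was 3.05 between those 2 and 3.28 to 6.48 among the APL libraries. Without MP library 3 the log2 fold changes were -7.72 for Grb10, -4.88 for Igf2r and 3.53 for Plagl1, and Gnas was at 0.18 (limma, adjusted p = 0.0852). The number of members called lower was 2 without any single MP library, because Ndn then failed the filter and Meg3 lost its call. Kit, the gene of the shared gate, was at 10668 ± 272 scaled fragments in MPs and 5929 ± 132 in APL (log2 fold change -0.85; limma, adjusted p = 5.9e-06), and Ly6a, which encodes the Sca-1 used to exclude cells from the MP gate, was at 1.36 ± 0.355 FPKM in MPs and 2.18 ± 0.175 FPKM in APL (log2 fold change 0.68; limma, adjusted p = 0.043).

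The changes of the members were next set beside those of a longer list of imprinted genes. Of 61 listed, 43 were in the table and 37 were tested. In APL 12 were lower, 5 were higher and 20 were not called, so that 45.9% were called against 46.1% of all genes. Their median log2 fold change was -0.15. The share called was thus near that of all genes. Of the 12 that were lower, 9 had at most 3 fragments in each APL library. These 9 passed the filter through the MP libraries, where they are higher, so the counts are no support for a direction of this list.

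Slc22a3, an organic cation transporter gene imprinted with Igf2r in the placenta, was at 1460, 1846 and 1792 scaled fragments in MPs and at 5.89, 16.5 and 17.3 in APL. Its log2 fold change was -7.02 with an SE of 0.34 (limma, adjusted p = 3.0e-07), beside -4.80 for Igf2r, from whose locus it is 174702 bases away. Ppp1r9a, which encodes the actin-binding protein neurabin, was at 1101, 1097 and 705 in MPs and at 9.44, 8.67 and 6.17 in APL (log2 fold change -6.72; limma, adjusted p = 4.9e-08). Both genes were separated by far more than the spread within a group. Tspan32, a tetraspanin gene near the Igf2 and H19 domain, fell by 0.62 on the log2 scale (2766 ± 332 to 1789 ± 140).

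Ppp1r9a lies in the imprinted cluster of chromosome 6, and Peg10, Sgce and Asb4 of that cluster are named after their values were seen. These 3 passed the filter through the MP libraries alone, so they could be called in 1 direction only. Peg10, a gene derived from a retrotransposon, was at 45.9, 40.9 and 35.2 scaled fragments in MPs and at 0 in all APL libraries, at least 10.98-fold lower. Sgce, which encodes epsilon-sarcoglycan and starts head to head with Peg10, was at least 16.5-fold lower, and Asb4 at least 1.18-fold lower. Peg12 and Mkrn3 lie beside Ndn and were also chosen after their values were seen. Peg12 went from 98.3 ± 12.4 to 0.682 ± 0.611 (at least 26.6-fold lower). Mkrn3 went from 17.7 ± 11.2 to 0.804 ± 0.697 (at least 4.78-fold lower). The bound of Mkrn3 uses its MP mean and leaves out the spread of its MP values (5.62, 27.6 and 19.8). Phlda2, a placental growth restrainer, was at least 9.51-fold lower, and Htr2a, a serotonin receptor gene, at least 8.18-fold lower.

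Of the imprinted genes that rose, Ascl2, a basic helix-loop-helix factor of placenta and intestinal stem cells, was at 15.9, 12.4 and 16.2 scaled fragments in MPs and at 285, 381 and 362 in APL. All APL libraries were far above all MP libraries (log2 fold change 4.44, SE 0.20; limma, adjusted p = 1.9e-07). Gab1, a docking protein of growth factor receptors, and Zrsr1, a splicing factor related gene, rose by smaller amounts (0.71 and 0.72 on the log2 scale). Cdkn1c, which encodes the cell cycle inhibitor p57, and Slc22a18 were the others, with log2 fold changes of 2.29 and 1.70. These last 2 and Phlda2 lie in the same imprinted domain of chromosome 7 and went in opposite directions. Mest, a paternally expressed hydrolase gene, was at 60.0 ± 11.4 and 65.0 ± 7.84 and did not pass the test (limma, adjusted p = 0.625).

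**Figure D2:**
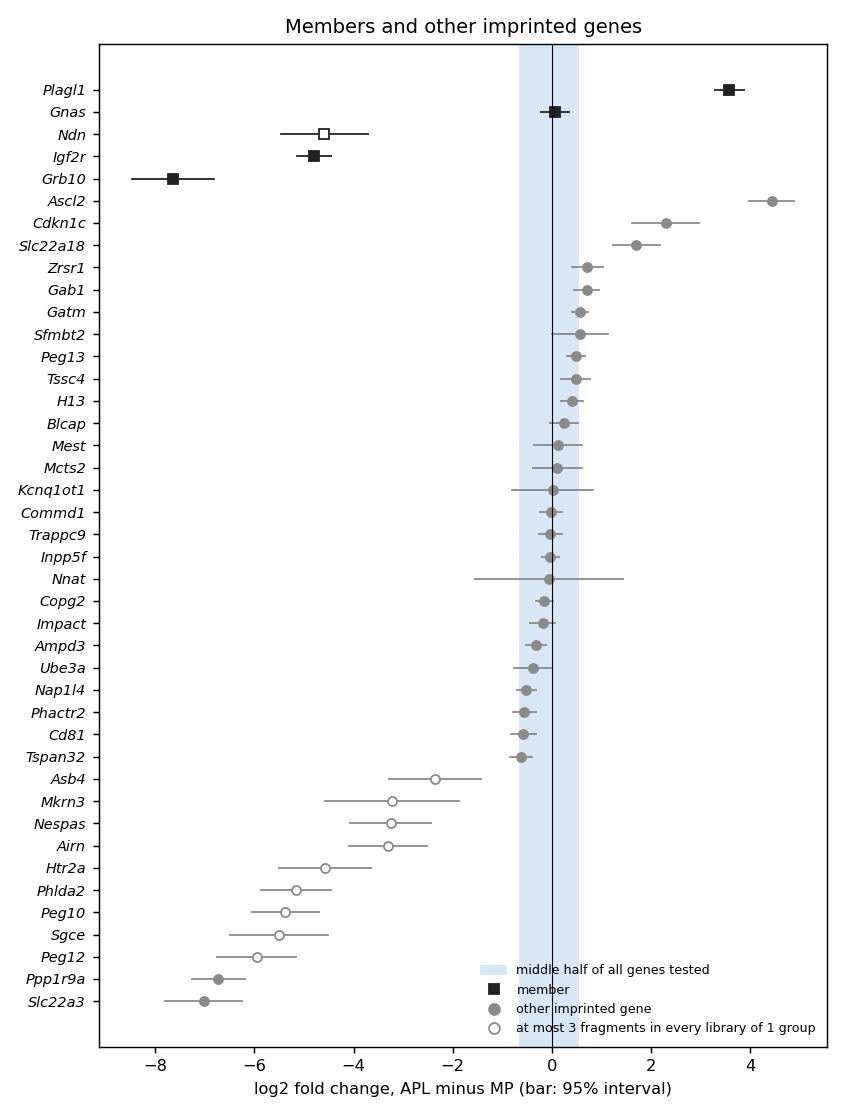
Log2 fold change (APL minus MP) with its 95% interval for 5 members (squares) and 37 other imprinted genes (circles), sorted by value within each kind, with the span between the quartiles of all genes tested (-0.633 to 0.526) shaded and open symbols where every library of a group held at most 3 fragments. Slc22a3 and Ppp1r9a lie with Grb10 at the low end, Ascl2 and Plagl1 at the high end, and many imprinted genes lie inside the shaded band.

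The nearest genes of the table beside each member were read in the same way. Next to Grb10, Fignl1, which encodes a DNA repair protein, was at 2048 ± 61.4 scaled fragments in MPs and 1867 ± 57.9 in APL (log2 fold change -0.13; limma, adjusted p = 0.097). On the other side the next gene was Sec61g, 4464218 bases away, which encodes a subunit of the protein translocation channel and was higher (log2 fold change 0.61). Next to Plagl1, the splicing factor gene Sf3b5 and the ribosome assembly gene Ltv1 had log2 fold changes of -0.13 and -0.23 and were not called. The genes that flank Grb10 and Plagl1 thus differed by far less than those members. Next to Igf2r, Pnldc1, a ribonuclease gene, was lower (11.8 ± 1.14 to 4.24 ± 3.82; log2 fold change -1.51). Beside Gnas, the cathepsin gene Ctsz was higher (2964 ± 347 to 6613 ± 677; log2 fold change 1.16), and Gm10714 held at most 1 fragment. Beside Dlk1, Begain was at 9.37, 14.3 and 17.1 scaled fragments in MPs and at 0 in all APL libraries. Beside Ndn lay Mkrn3, described above, and Snurf, 2208058 bases away. Snurf shares its locus with Snrpn and held at most 1.98 fragments in any library. Beside H19 lay Ascl2 and Nctc1, the latter with at most 1 fragment, and the neighbours of Peg3 (Olfr1344 and Aurkc) and Rian, beside Meg3, held at most 2.

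Within 1 Mb of a measured member, a window chosen after the values were seen, 100 other genes were tested. Of these 33 were lower, 14 higher and 53 not called, with a median log2 fold change of -0.34. The share called was 47.0% against 46.1% of all genes. By direction, 24.4% of all genes were lower and 21.7% higher, which also stands beside the counts that follow. Around Grb10, 2 of the 4 genes tested were lower (Ikzf1, which encodes the lymphoid and myeloid factor Ikaros, at -0.81, and Zpbp, a gene of sperm, at -1.43). Around Ndn the 2 genes tested, Mkrn3 and Peg12, were both lower, and both reached the filter through the MP libraries. Around Igf2r 6 of 19 were lower and 3 higher, and around Plagl1 2 of 11 were lower and 2 higher. Around Gnas, which itself was not called, 8 of 17 were lower and 1 was higher.

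**Figure D3:**
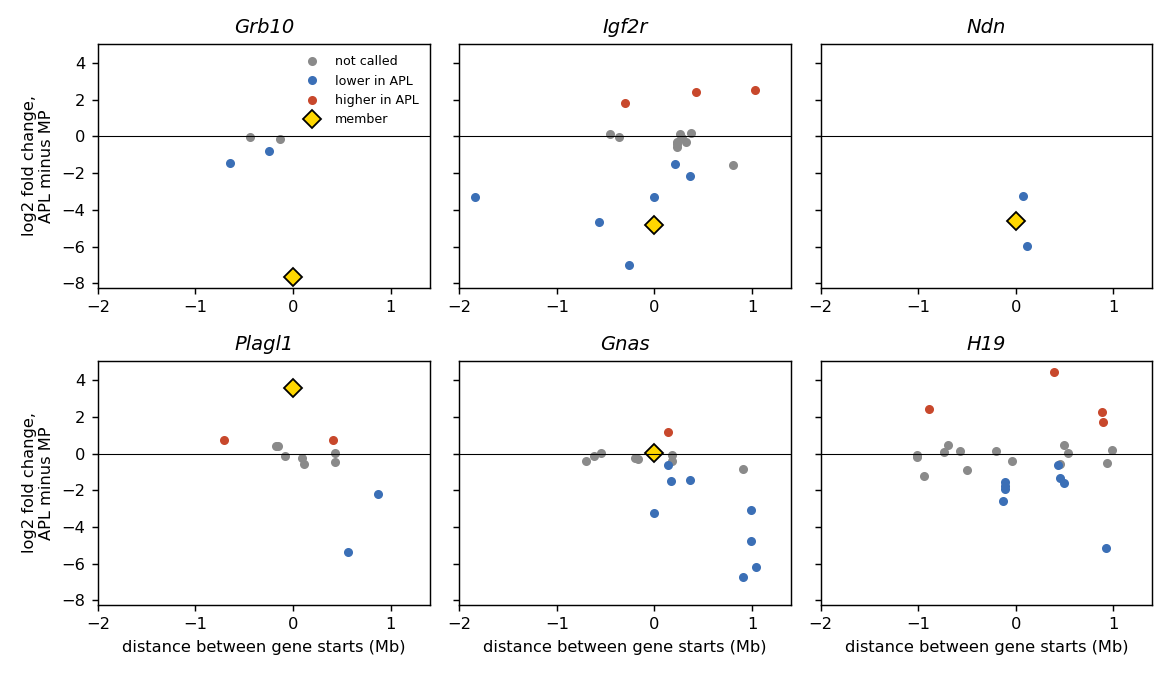
Log2 fold change (APL minus MP) of the tested genes within 1 Mb of Grb10, Igf2r, Ndn, Plagl1, Gnas and H19, against the distance in Mb between their starts and that of the member (diamond, none for H19, which was not tested). Grb10 lies below and Plagl1 above all genes around them, while Igf2r has Slc22a3 (-7.02) and Ndn has Peg12 (-5.95) below it.

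Since Igf2r and Grb10 act on the IGF and insulin pathway, its other genes were listed. Of 39 listed, 31 were in the table and 30 were tested, of which 4 were lower, 6 were higher and 20 were not called (33.3% called against 46.1% of all genes, median log2 fold change 0.05, or 0.04 with bounds). Grb14, the paralog of Grb10 and likewise an inhibitor of the insulin receptor, moved the other way: it was at 2.81, 8.57 and 4.51 scaled fragments in MPs and at 1386, 1355 and 1465 in APL. Its means were 5.30 ± 2.96 and 1402 ± 56.8, a log2 fold change of 7.90 with an SE of 0.30 (limma, adjusted p = 7.9e-08). In MPs Grb10 was the abundant adaptor of the pair, and in APL Grb14 was.

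Among the receptors, Insr, the insulin receptor, rose from 1303 ± 184 to 2979 ± 287 scaled fragments (log2 fold change 1.198; limma, adjusted p = 2.1e-05). Igf1r, the receptor that carries the growth signal of both IGFs, was at 2818, 2720 and 2090 in MPs and at 3186, 3147 and 3202 in APL, a log2 fold change of 0.33 that was below the fold threshold (limma, adjusted p = 0.024). The receptor substrate gene Irs2 rose (log2 fold change 0.93). Nedd4, a ubiquitin ligase that binds Grb10, fell from 15268 ± 599 to 6272 ± 263 (log2 fold change -1.28; limma, adjusted p = 8.2e-07), and Igfbp4, a secreted IGF-binding protein gene, fell from 8074 ± 572 to 4432 ± 541 (log2 fold change -0.87). The other genes called were Igfbp7 and Igf2bp3 (lower) and Irs1, Shc1 and Igf2bp2 (higher). Igf1 itself was at 4.37 ± 2.05 and 1.55 ± 1.76, and the difference did not pass the test (limma, adjusted p = 0.0805).

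**Figure D4:**
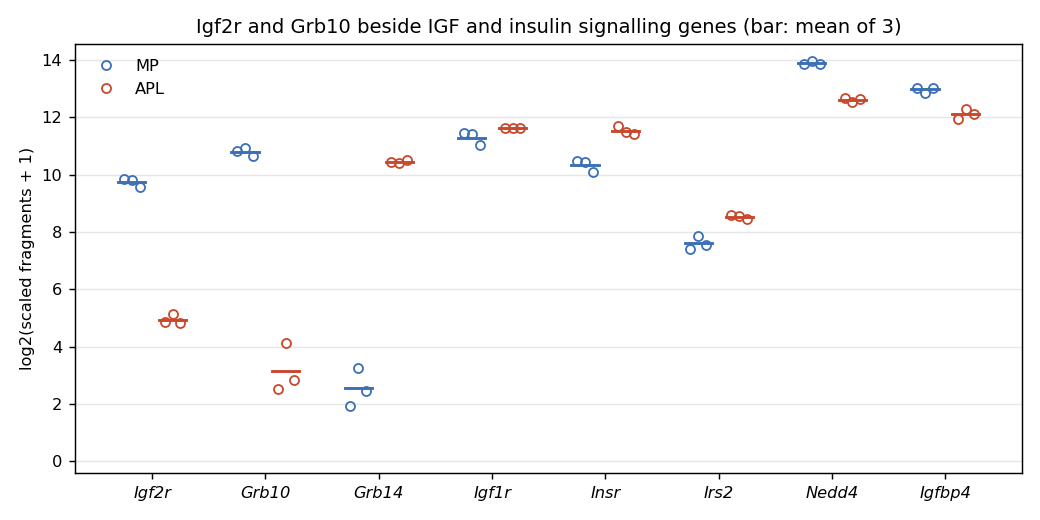
Scaled fragments per library of Igf2r, Grb10 and the named IGF and insulin pathway genes, on a log2 axis after adding 1, with MP and APL libraries as separate points and group means as bars. Grb10 and Grb14 change places between the groups, Insr is higher and Nedd4 lower in APL, and Igf1r differs little.

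Around Gnas, 53 genes of Gs and cAMP signalling were listed, 48 were in the table and 45 were tested. Of these 16 were lower, 11 were higher and 18 were not called (60.0% called against 46.1% of all genes), with a median log2 fold change of 0.01. The G protein subunit gene Gnb4 had 1386 ± 261 scaled fragments in MPs and 7.92 ± 1.32 in APL (log2 fold change -7.27), the adenylyl cyclase gene Adcy6 fell from 1867 ± 108 to 185 ± 26.6 (-3.34), and the cAMP phosphodiesterase gene Pde4b from 589 ± 23.5 to 114 ± 5.16 (-2.36). In the other direction, Adcy3, another adenylyl cyclase gene, rose from 82.3 ± 14.4 to 1146 ± 115 (3.79), the prostacyclin receptor gene Ptgir from 106 ± 11.5 to 1294 ± 75.3 (3.61), and the phosphodiesterase gene Pde8a from 181 ± 22.2 to 1133 ± 62.3 (2.64). Each of these 6 had an adjusted p of at most 2.0e-07 (limma). Prkaca, the main catalytic subunit of protein kinase A, was at 1751 ± 134 and 1763 ± 64.1.

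Genes that place, keep or remove methylation at imprints made up the last list. Of 22 listed, 21 were tested, 8 were lower, 2 were higher and 11 were not called (47.6% called, near the 46.1% of all genes, with a median log2 fold change of -0.47). Tet1, which oxidizes methylated cytosine, was at 479, 553 and 360 scaled fragments in MPs and at 10.6, 11.3 and 9.88 in APL (log2 fold change -5.31; limma, adjusted p = 8.1e-08). The de novo methyltransferase genes Dnmt3a and Dnmt3b fell from 1889 ± 90.5 to 550 ± 30.0 and from 1640 ± 108 to 576 ± 54.4 (-1.78 and -1.51). Dnmt3l, their partner in setting germ line imprints, was at 2.81, 1.90 and 7.21 in MPs and at 252, 222 and 273 in APL (5.79; limma, adjusted p = 1.5e-06), and Tet2 rose from 940 ± 181 to 1588 ± 184 (0.77). Zfp57, whose protein protects imprints in the embryo and which is named after its values were seen, was at 36.5, 42.8 and 42.4 in MPs and at 2.36, 3.47 and 3.70 in APL (-3.33). Dnmt1, the maintenance methyltransferase, and Ctcf, the insulator protein of the Igf2 and H19 domain, were not called (0.18 and -0.09 on the log2 scale).

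Marker genes of blood, stromal and endothelial cell types were read in the same libraries. The counts that follow stand beside 24.4% of all genes called lower and 21.7% called higher. Of 16 stem cell markers tested, 14 were lower and 1 was higher in APL, and the summed level of the list was 187 to 256 FPKM in MPs and 5.80 to 7.41 FPKM in APL, where Fgd5 and Hoxb5 were at 0 in all libraries. Of 12 erythroid markers tested, 11 were lower, and their sum was 1707 to 2182 FPKM in MPs and 45.8 to 55.4 FPKM in APL. Of 11 megakaryocyte and platelet markers tested, 9 were lower (85.0 to 125 FPKM and 4.18 to 6.21 FPKM, with Gp6 at 0 in APL). Of 16 granulocyte and monocyte markers tested, 5 were lower and 6 higher, and their sum was 9540 to 11808 FPKM in MPs and 24004 to 28619 FPKM in APL. Of 13 stromal and endothelial markers tested, 7 were lower and 3 higher (13.6 to 15.3 FPKM and 3.00 to 3.22 FPKM). Dcn and Ibsp were at 0 in all MP libraries, and Col3a1 and Adipoq in all APL libraries. Of 7 lymphoid markers tested, 5 were lower (sums of 249 to 275 FPKM and 241 to 266 FPKM), with Cd3e at 0 in MPs and Cd3g in APL. The median log2 fold changes of these 6 lists, in the order given, were -5.94, -7.07, -5.37, 0.15, -1.43 and -1.75, and with genes at the floor set to their bounds they were -5.63, -7.07, -4.23, 0.15, -0.34 and -0.60. At most 3 fragments in each APL library were held by 5 of the 14 lower stem cell markers and 2 of the 9 lower megakaryocyte and platelet markers. The same held for 4 of the 7 lower stromal and endothelial markers and 2 of the 5 lower lymphoid markers. A gene that met the filter through the MP libraries alone could only be called lower, so these counts are no support for a direction. The part of these marker differences in the changes of Grb10, Igf2r, Ndn and Plagl1 was not tested.

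Among the single markers, Hoxa9, a homeobox gene of stem cells and progenitors, was at least 64.7-fold lower, and Meis1, its partner, and Gfi1b, an erythroid and megakaryocytic repressor, had log2 fold changes of -7.33 and -7.30. Car1, the carbonic anhydrase of early erythroid cells, Ermap and Rhag, genes of red cell membrane proteins, had -8.08, -7.91 and -7.79. The platelet receptor genes Gp5 and Itga2b had -6.54 and -5.56. In the myeloid list the monocyte genes Irf8, Ly86 and Csf1r fell by 4.91, 4.74 and 1.81, and the granule protein genes Ctsg, Elane and Mpo rose by 2.56, 1.78 and 1.22 on the log2 scale. Tie1 and Pdgfrb of the stromal and endothelial list had -3.57 and -1.01, and Cd4 and Cd79b of the lymphoid list -6.18 and -5.62.

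For Gnas and Grb10, the members with the highest mean FPKM over all 6 libraries (Grb10 through its level in MPs), the genes with the most similar pattern over the 6 libraries were sought by Pearson's r of the log2 values, as a description without a p. The points share libraries and, for Grb10, the difference between the groups. For Gnas they were Mfng (r = 0.995), Akr1a1 (0.995) and Akt1 (0.993), whose values, like those of Gnas, overlapped between the groups and were high in MP library 3. For Grb10 they were Clca1 (r = 1.00), Uaca (0.999) and Rasgef1b (0.999), each near absence in APL with at most 2 fragments in a library.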

How the data were processed

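RNA was measured by TruSeq RNA libraries of sorted bone marrow cells, 3 per group. A table of 16440 genes was deposited by the authors. Its FPKM columns, as the authors made them, divide fragments by transcript length and library depth. The deposited fragment values are a signal, estimated fragments scaled by a factor of each library; a single fragment was worth 0.867 to 1.23, and 89.5% to 91.7% of nonzero values were whole (within 0.1) after division by it, too few for a count test. The submitters' processing notes name CASAVA 1.8, TopHat2 2.0.6 and the build mm10, while the paper's methods name STAR, mm9 and HTSeq-count; the program that made the table is not given in the sources used here. Of the gene identifiers 16361 (99.5%) matched RefSeq on GRCm38.p6. Table starts count from 0, so 1 was added. A locus was shared by 2566 genes, whose fragments could be divided between them.

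Groups came from the labels. Genes with at least 1 scaled fragment in at least 3 of 6 libraries (14595) were fitted with limma 3.58.1 in R 4.3.3 (lmFit, then eBayes with its trend option). The scale was log2(scaled fragments + 1), which understates the change of low genes. P-values were adjusted by Benjamini and Hochberg over all genes tested, and a call needed an adjusted p under 0.05 and a fold over 1.5. Single values also had a two-sided exact permutation test (scipy 1.17.1, Python 3.11.15). Up to 3 fragments in each library of a group was the floor for folds, which then are bounds and cover counting error only. The test was tested on simulated data for the same comparison: 200 of 200 changed genes among 14237 were recovered with 7 false calls. The planted changes were well over the fold threshold, lay in genes well above the floor and had the same noise level throughout. A far smaller share of genes changed than was called in the data. The simulation therefore does not cover low genes, small changes or uneven noise between libraries. The members and the lists were chosen with earlier results of these data known. Named were all members, per list up to 3 called genes in each direction with the largest changes, no overlap and a mean of at least 100 scaled fragments, the nearest table genes, and the 3 genes most like each of the 2 members with the highest mean FPKM. The values of some genes that this rule names are not reported here. Library numbers are shared by the groups and were not used as a block. Alternatives covered the filter, pseudocount, scaling, FPKM, voom weights, the block, the thresholds and each library left out. Figures were drawn with matplotlib 3.10.9.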

Additional observations from a re-analysis of the deposited data

How the results depend on the processing

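Grb10, Igf2r and Plagl1 kept their direction and their call in all 17 alternatives run, and Ndn in the 13 in which it was tested. Under a filter, Ndn was tested only where the 3 MP libraries admitted it, so its direction there was largely fixed. The log2 fold changes ran from -8.12 to -3.65 for Grb10, from -4.95 to -1.89 for Igf2r and from 1.98 to 3.86 for Plagl1. For Ndn they ran from -5.52 to -0.79. The value nearest 0 was that on log2(FPKM + 1) for each of these members, a scale that shrinks low genes. Gnas was called in no alternative, and its log2 fold change was negative with quantile normalization (-0.0199), with each library scaled to the same total (-0.0747), with voom weights (-0.0743), without MP library 2 (-0.0198) and without APL library 2 (-0.00101). With single libraries left out it ran from -0.0198 to 0.183. The same-total and voom settings moved the median of all genes from -0.10 to -0.23. Members called lower were 6 with no filter on low values, 2 with at least 1 scaled fragment in all 6 libraries, and 2 to 4 when single libraries were left out. With FPKM the genes lower among all tested were 2205, and the calls in the lists were 9 for the other imprinted genes, 5 for IGF and insulin signalling, 5 for stromal and endothelial markers and 2 for lymphoid markers. With at least 1 in all 6 libraries, they were 8 for the other imprinted genes, 4 for stromal and endothelial markers and 2 for lymphoid markers, and lymphoid markers had 3 with at least 10 in at least 3 libraries. These filters test fewer genes; other causes were not tested. Same-numbered libraries had correlations of 0.135, -0.00159 and 0.127 over 11061 genes. Those of differently numbered libraries ran from -0.277 to 0.197. Whether library numbers pair the samples cannot be read from so few values. With the number as a replicate block 3589 genes were lower and 3164 higher, 6673 of the 6725 calls were shared, and among the members only Meg3 lost its call (limma, adjusted p = 0.0635). Over all alternatives the adjusted p of Meg3 was between 0.0265 and 0.216. Depth limits H19, Peg3, Dlk1 and Meg3, which held at most 4 fragments in a library.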

Other observations

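Receptors that signal through the product of Gnas differed between the groups in both directions, and the genes given here were picked with their values known. The prostaglandin E receptor genes Ptger2 and Ptger4 rose from 109 ± 11.4 to 560 ± 50.4 scaled fragments and from 227 ± 24.5 to 1298 ± 70.2 (log2 fold changes 2.35 and 2.52, limma adjusted p = 6.1e-07 and 1.1e-07). The adenosine receptor gene Adora2b was at 3.75, 4.76 and 7.21 in MPs and at 54.2, 65.0 and 66.6 in APL (3.37), while Adora2a, which encodes the other Gs-coupled adenosine receptor, fell from 73.5 ± 20.8 to 14.4 ± 3.59 (-2.26). Each of these 4 genes was separated between the groups, as were 70.9% of all genes tested.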
